A study of Mus musculus with 12 samples.

Results

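Eukaryotic translation initiation factors are the proteins that load the initiator tRNA, the 40S ribosomal subunit and the capped mRNA onto each other and then let the 60S subunit join. They are numbered eIF1 to eIF6, and some of them are complexes of several gene products. Their genes were taken by symbol from the mouse gene names of the deposited table: every symbol that starts with Eif and a digit from 1 to 6 was kept, the eIF2α kinases (Eif2ak) and the symbols of processed pseudogenes (-ps) were left out. Of 58 symbols that matched, 4 kinases and 4 pseudogenes were left out, and 50 of the 24296 gene symbols in the table remained. The rule goes by name, so it also took in 3 inhibitors of eIF4E (Eif4ebp1, Eif4ebp2, Eif4ebp3), the eIF4E transporter Eif4enif1 and Eif1ad, a ribosome maturation protein with an eIF1A-like domain.

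RNA was sequenced from whole livers of male C57/BL6N mice in 4 groups, with 3 livers per group, each from a different mouse and none measured again. The control mice did not receive CCl4, and no vehicle is stated for them. The model mice received CCl4 in olive oil (5 mL/kg, into the peritoneum, 2 times a week for 8 weeks), which scars the liver. The silibinin and phloridzin mice received the same CCl4 and, from week 5 on, silibinin or the high dose of phloridzin (40 mg/kg), and all livers were taken after 8 weeks. The age of the mice is not stated.

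In a stressed cell, kinases phosphorylate the α subunit of eIF2, which blocks its exchange factor eIF2B and lowers initiation on most mRNAs while the mRNA of the transcription factor ATF4 is translated more. Growth signals act on the cap-binding end through mTORC1, which phosphorylates the 4E-BP proteins and releases eIF4E. In mouse liver eIF6, which keeps free 60S subunits from joining, is known to be needed for the full rise of translation after insulin.

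Levels are given as FPKM, a fragment count corrected for the length of the transcript and for how many fragments of that liver were mapped, summed over the transcripts of each gene. The 50 genes together reached 1014, 1052 and 1023 FPKM in the control livers and 1275, 1470 and 1450 in the model livers. The silibinin livers held 1022, 1023 and 1039, and the phloridzin livers 1247, 1189 and 1038. As deposited all 3 model livers lay above every other liver, but with each liver scaled by median ratios the totals were 1152, 1188 and 1247 in control and 1071, 1277 and 1224 in model livers, with model liver 1 below every control. As deposited, mean ± SD was 1029.6 ± 19.6 in control, 1398 ± 108 in model, 1028 ± 9.58 in silibinin and 1158 ± 108 in phloridzin livers. The ratio of model to control was 1.36 (0.995 with median ratios), of silibinin to model 0.735 (0.855) and of phloridzin to model 0.828 (0.937).

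**Figure D1:**
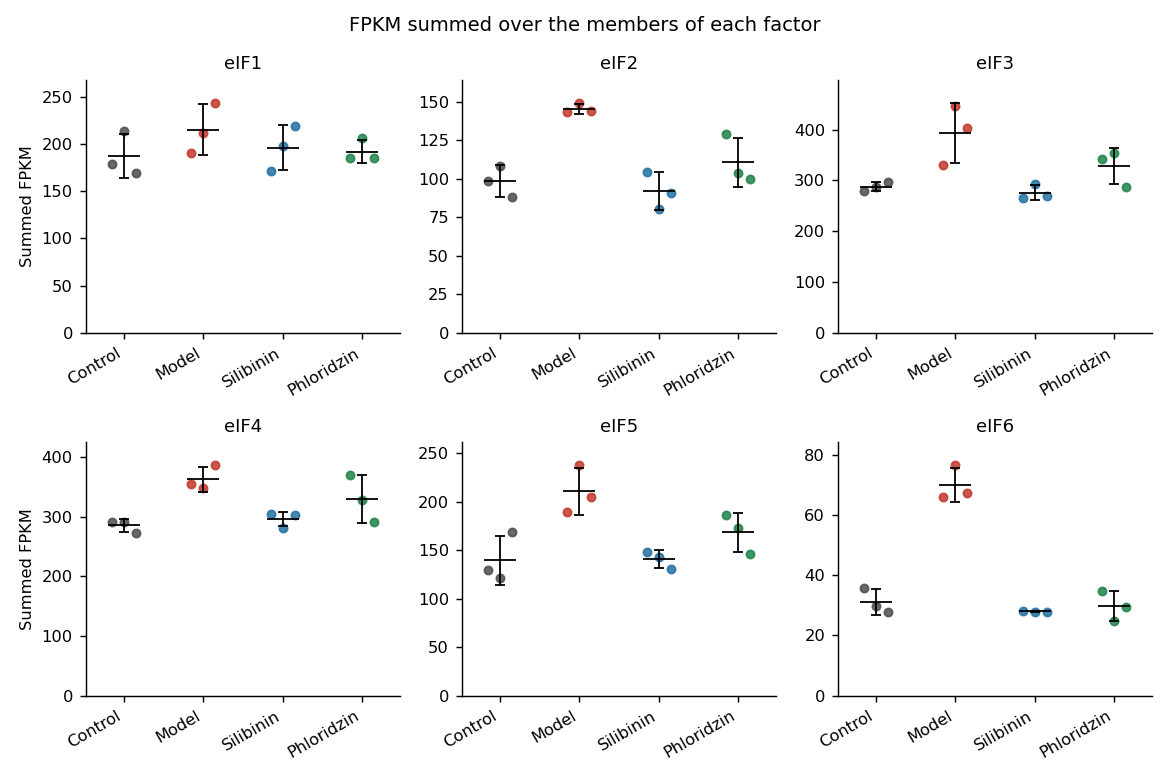
Summed FPKM of the genes of each initiation factor in each liver, with group mean ± SD (n = 3 livers per group). Scaled by median ratios, the model to control ratio turned to 0.844 for eIF1 and 0.931 for eIF4, silibinin to model to 1.06 for eIF1, and phloridzin to model to 1.01 for eIF1 and 1.03 for eIF4.

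Split by factor, the sum of the 5 eIF1 genes was 187 ± 23.4 FPKM in control and 215 ± 26.7 in model livers (ratio 1.15, but 0.844 once each liver was scaled by median ratios). For the 11 eIF2 and eIF2B genes it was 98.4 ± 10.3 in control and 146 ± 3.40 in model livers, a ratio of 1.48. The 14 eIF3 genes summed to 287 ± 8.49 in control and 394 ± 59.0 in model livers (ratio 1.37). The 15 genes under eIF4 gave 286 ± 10.7 and 363 ± 20.5 (ratio 1.27, but 0.931 with median ratios), and the 4 genes under eIF5 gave 139.5 ± 25.3 and 211 ± 24.5 (ratio 1.51). The largest ratio was that of the single eIF6 gene, 2.25, and it was 1.65 with median ratios. In silibinin livers the sums over those of the model were 0.91 for eIF1 (1.06 with median ratios), 0.633 for eIF2, 0.699 for eIF3, 0.816 for eIF4, 0.666 for eIF5 and 0.399 for eIF6. In phloridzin livers the same ratios were 0.892, 0.761, 0.832, 0.909, 0.799 and 0.423 in that order, and with median ratios those of eIF1 and eIF4 turned to 1.01 and 1.03. With median ratios the model to control sums of eIF2, eIF3 and eIF5 were 1.09, 1.00 and 1.1.

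For the tests, log2(FPKM + 1) of each gene was compared between groups with limma, and p-values were adjusted over all 13158 genes whose mean was at least 0.5 FPKM. An adjusted p under 0.05 counts as a difference, and fold changes are log2 values ± standard error. Counts at an unadjusted p under 0.05 are given without the share of all genes, so they are not read as a result about the members. Among the 50 genes, 46 were tested. The other 4 were Eif2s1, Eif3j1, Eif4ebp3 and Eif5a2.

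Between model and control livers 18 of the 46 genes rose (39.1%, beside 31.1% of all genes) and none was lower, while with median ratios 4 were higher and 1 lower. As deposited 26 had an unadjusted p under 0.05, and 34.9% of all genes differed. The 18 were Eif1a, Eif1ad, Eif2b1, Eif2b2, Eif2b3, Eif2b4, Eif2s2, Eif2s3x, Eif3a, Eif3b, Eif3c, Eif3d, Eif3g, Eif4e2, Eif4g2, Eif4g3, Eif5b and Eif6. Of these, 5 also passed a log2 fold change of 1 (10.9% of the 46, beside 10.5% of all genes): Eif4g3, Eif5b, Eif6, Eif4e2 and Eif4g2. Fold changes were positive for 41 of the 46 genes and negative for 5, and their median was 0.52 beside 0.34 for all genes. With median ratios 27 were positive and 19 negative, with a median of 0.16.

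That direction rests in part on how livers are scaled. The median gene was 0.34 higher in the model as deposited and 0.01 with median ratios, where 4 of the 46 genes were higher (Eif3b, Eif4g2, Eif5b, Eif6) and 1 was lower (Eif4g1), and where all genes split into 1727 higher and 1547 lower instead of 4094 higher and 500 lower. Scaled to the same total FPKM, 28 of the 46 were higher, beside 6132 of all 13158 genes. Relative to the median of all genes, 31 of the 46 fold changes lay above it as deposited and 27 with median ratios. The count of 18 fell to 11 without model liver 3 and to 10 when only the most abundant transcript of each gene was taken. Shares of all genes under these settings are not given. The assembled transcripts without a gene name carried 19.4 to 29.8% of the FPKM of a liver, and their share was highest in the control livers (25.5 to 29.8%).

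**Figure D2:**
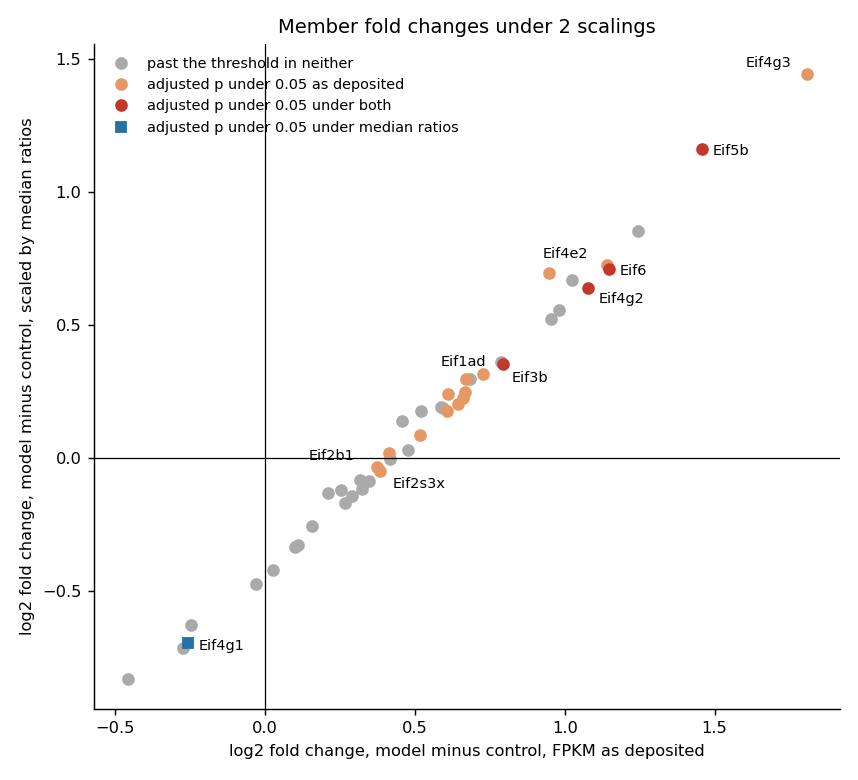
Log2 fold change of each of the 46 tested genes between model and control livers, as deposited and after scaling by median ratios (n = 3 livers per group). As deposited 18 were higher and 0 lower, with median ratios 4 were higher and 1 lower.

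In silibinin livers 12 of the 46 genes were lower than in the model and none was higher, with 19 at unadjusted p under 0.05. Over all genes 14.1% differed and 11.4% were lower. All 12 were among the 18 that rose in the model: Eif1a, Eif1ad, Eif2b1, Eif2b3, Eif2b4, Eif2s2, Eif3b, Eif3c, Eif3d, Eif3g, Eif5b and Eif6. Eif5b and Eif6 passed a log2 fold change of 1, as 4% of all genes did. Both comparisons use the same 3 model livers. The median fold change of the 46 was -0.50 beside -0.15 for all genes (-0.30 beside 0.01 with median ratios), and with median ratios 11 of the 12 genes were still lower, all but Eif2b1, beside 850 of all 13086 genes tested there.

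In phloridzin livers 11 of the 46 genes were lower than in the model and none was higher, with 16 at unadjusted p under 0.05. Over all genes 12.9% differed and 10.4% were lower. These 11 were Eif1a, Eif1ad, Eif2b1, Eif2b4, Eif2s2, Eif3b, Eif3c, Eif3d, Eif3g, Eif4g3 and Eif6, and they too had risen in the model, whose livers are shared. Eif4g3 and Eif6 passed a log2 fold change of 1 (3.52% of all genes). The median of the 46 was -0.33 beside -0.11 for all genes (-0.15 beside 0.03 with median ratios), 34 fold changes were negative and 12 positive (31 and 15 with median ratios), and with median ratios 8 were lower, beside 823 of 13086 genes. The count was 7 without model liver 2, and also 7 when only these 6 livers were fitted, and the shares of all genes under these settings are not given.

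No gene of the 46 passed limma between silibinin and control livers, where 5.02% of all genes did, and 3 had an unadjusted p under 0.05 (Eif3g, Eif4e2, Eif4g2). None passed limma between phloridzin and control livers, where 7.99% of all genes did, and 6 had an unadjusted p under 0.05 (Eif3e, Eif3h, Eif4e2, Eif4e3, Eif4g2, Eif5b). Without phloridzin liver 3, 1 gene passed. With median ratios Eif3d alone was lower than in control, at -0.40 in silibinin and -0.37 in phloridzin livers. Over all 13086 genes tested there, 154 and 218 were lower. The median fold change of the 46 against control was -0.01 for silibinin (0.16 for all genes) and 0.13 for phloridzin (0.18 for all genes), and with median ratios it was -0.23 and -0.11 (-0.02 and -0.01 for all genes). At an equal total FPKM Eif3h and Eif4g2 were higher than in control with silibinin, and Eif3h with phloridzin. Over all 13158 genes, 2032 were then higher with silibinin and 1834 with phloridzin.

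Silibinin, a flavonolignan, and phloridzin, a dihydrochalcone glucoside, each have sequenced livers of 1 dose and 1 end point, and the doses differ. No member passed limma between phloridzin and silibinin livers, with 2 at unadjusted p under 0.05 (Eif3e and Eif5b), and 3 of all 13158 genes did (0.0228%). The difference for Eif5b was 0.88 (95% interval 0.23 to 1.53) and for Eif3e 0.47 (95% interval 0.05 to 0.89). Both were picked by their unadjusted p, and the intervals are not adjusted for the number of genes tested. For Eif6 it was 0.07 (95% interval -0.25 to 0.39) and for Eif3b 0.10 (95% interval -0.16 to 0.36). The interval was widest for Eif4g3 among the genes that fell with phloridzin, -0.05 (95% interval -1.12 to 1.03).

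**Figure D3:**
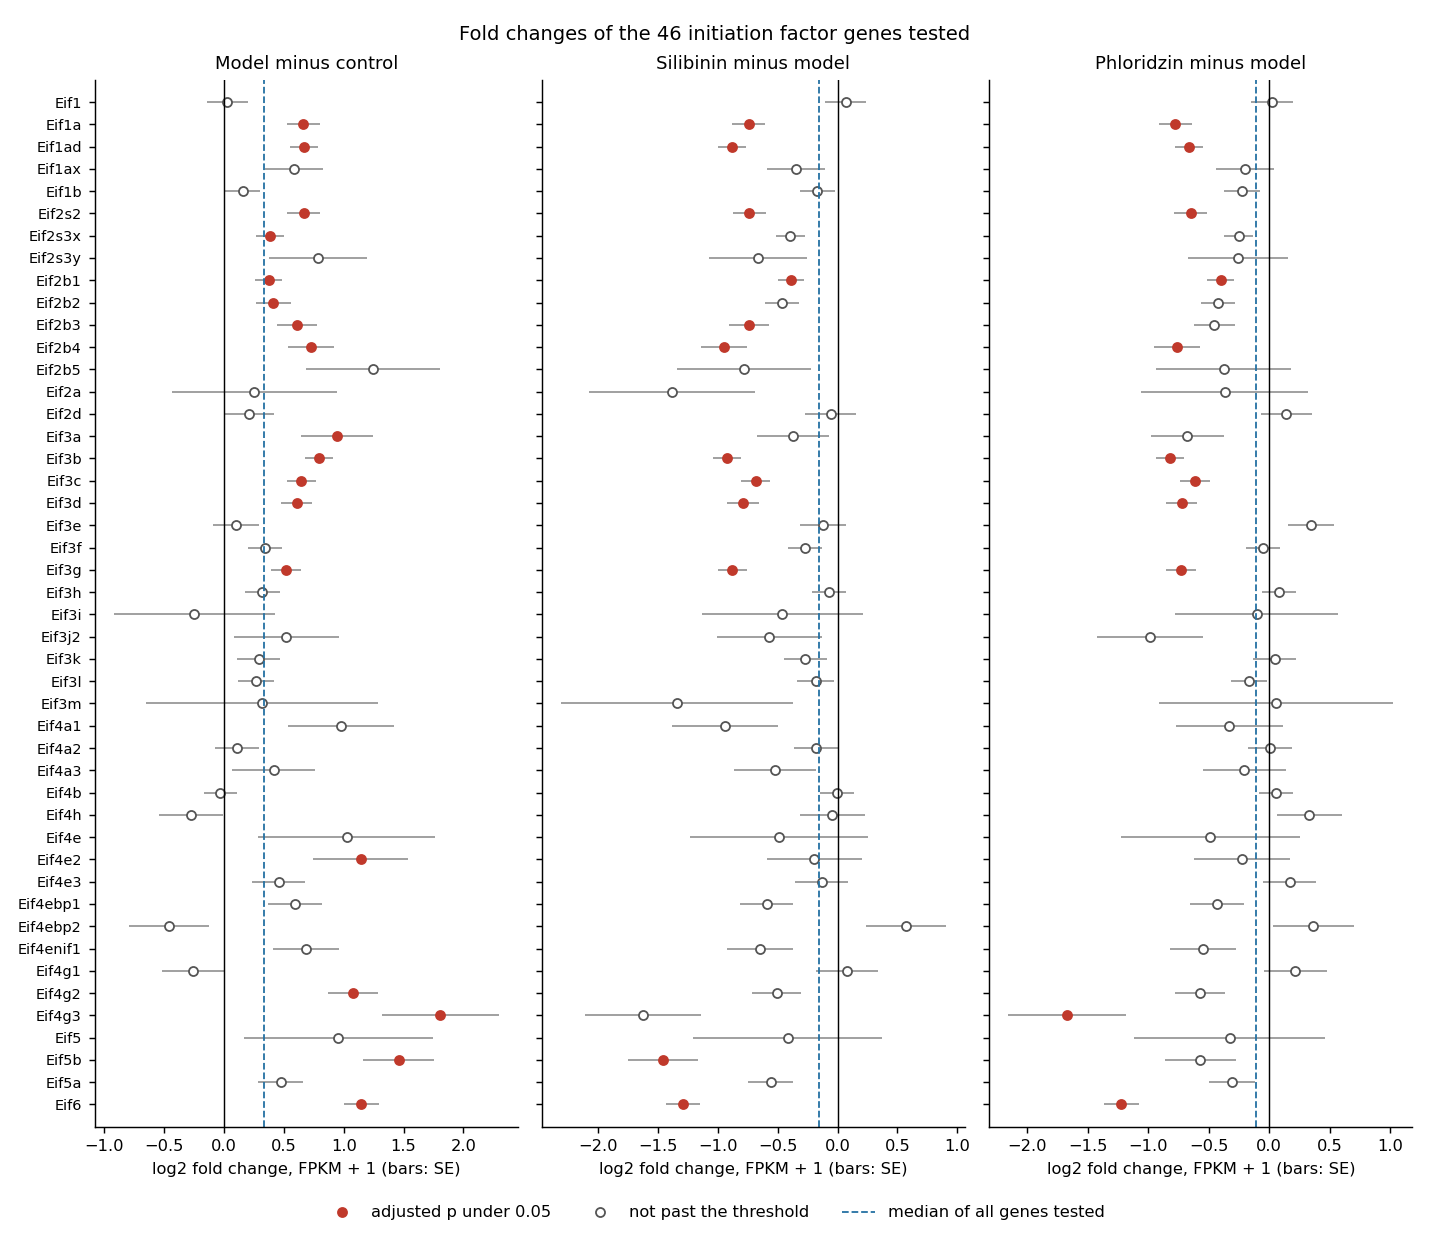
Log2 fold change ± standard error of the 46 tested genes in 3 comparisons, as deposited, filled where the adjusted p was under 0.05, with the median of all genes as a dashed line (n = 3 livers per group). With median ratios the model to control count was 4 higher and 1 lower.

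Another description uses no test. In 16 of the 46 genes (34.8%, beside 16.7% of all genes) all 3 model livers lay above the other 9 livers, and in none did all 3 lie below. Eif2b5 and Eif3j2, which did not pass limma, were among the 16. With median ratios the model livers were above the other 9 for 5 genes (10.9%, beside 8.22% of all genes), Eif1ad, Eif3b, Eif3d, Eif4g2 and Eif6.

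**Figure D4:**
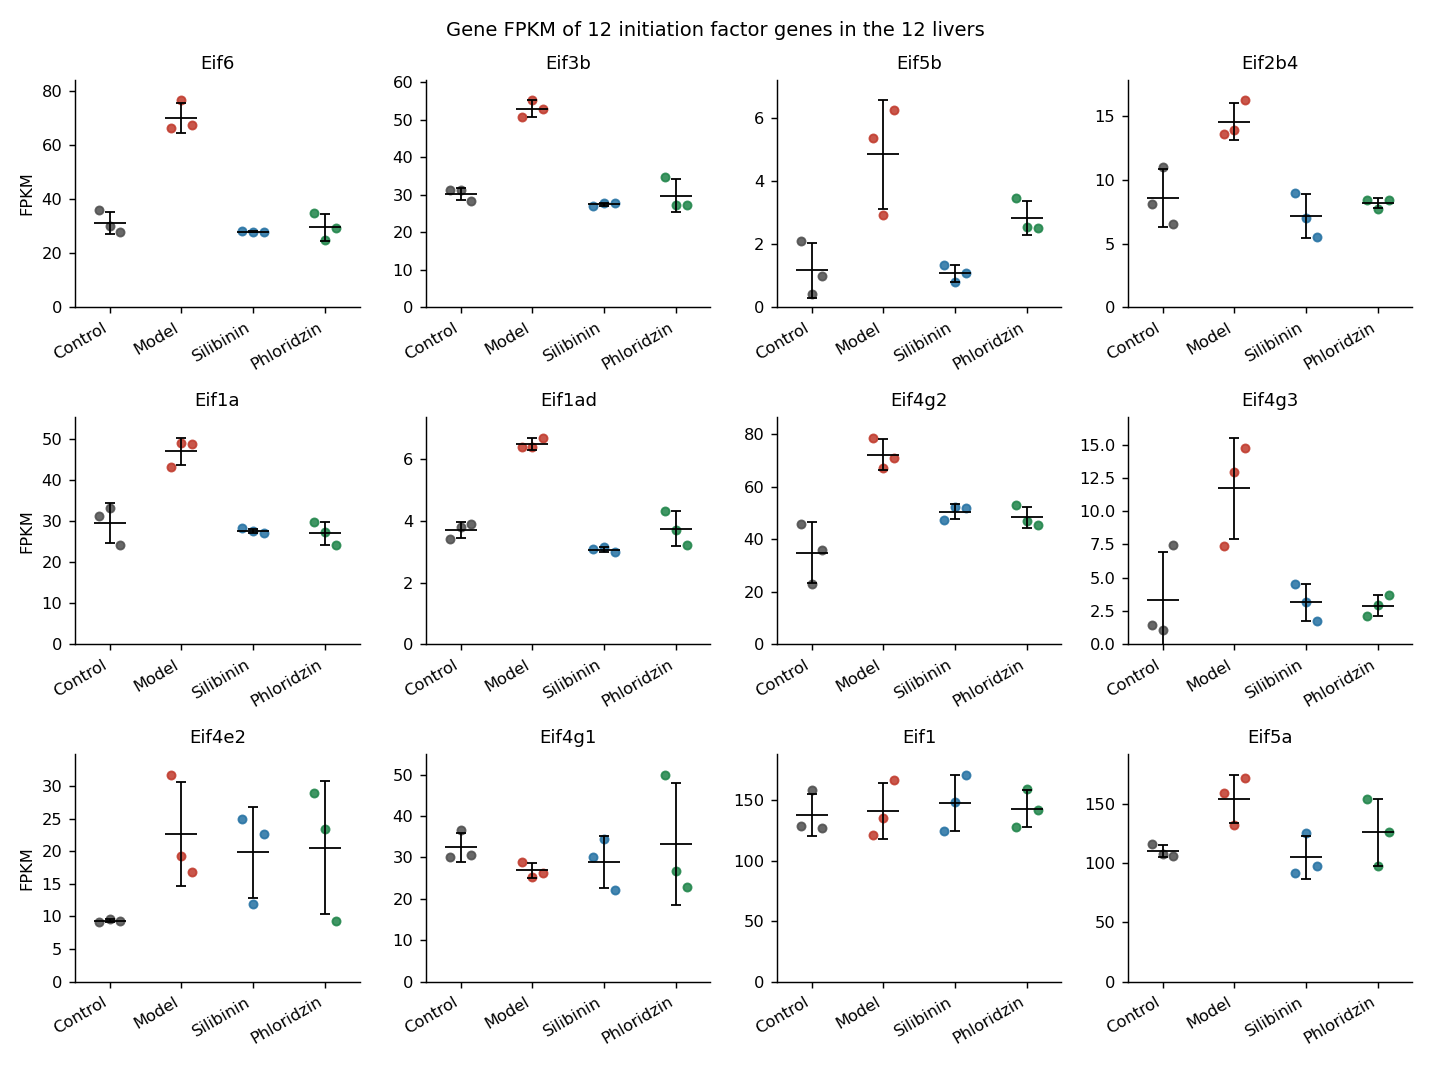
FPKM of 12 initiation factor genes in each liver with group mean ± SD, as deposited (n = 3 livers per group), with Eif1 and Eif5a beside the genes with the largest fold changes. With median ratios Eif4g1 was lower in model than in control livers, and Eif1a, Eif1ad, Eif2b4, Eif4e2 and Eif4g3 did not pass.

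Promoter sequences of 39 of the 50 genes were found in RefSeq (build GRCm38.p6), in windows of equal length from before the start of transcription to just after it. The E-box CACGTG, which is the binding motif of MYC and related proteins and reads the same on both strands, was looked for because MYC is known to drive genes of protein synthesis. It was present in 10 of the 39 (25.6%), beside 8.09% of the promoters of 27025 genes. Of the genes that rose in the model, 1 of 14 with a promoter had it (Eif3a), beside 8 of the 22 other tested genes. A match describes the sequence only. The stretches shown are those of the 5 tested genes where the motif lies before the start site and outside annotated exons, read in the direction of the gene. Eif5a2, which was not tested, is not shown.

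Eif3k, a peripheral eIF3 subunit, has its E-box 44 bases before the start, chr7:28981889-28981972 (-): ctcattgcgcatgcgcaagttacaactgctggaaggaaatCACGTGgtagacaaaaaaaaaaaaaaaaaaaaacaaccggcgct. Eif3f, an eIF3 subunit with a deubiquitinase-like domain, has it 68 bases before, chr7:108934307-108934392 (+): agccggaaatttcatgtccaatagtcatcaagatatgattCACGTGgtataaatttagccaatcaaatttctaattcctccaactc. In both the motif continues as CACGTGgta. For Eif4a1, the main cytoplasmic eIF4A helicase, the distance is 189 bases, chr11:69672567-69672652 (-): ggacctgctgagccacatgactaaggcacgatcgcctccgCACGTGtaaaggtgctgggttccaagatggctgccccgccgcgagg. For the scaffold gene Eif4g1 it is 54 bases, in an intron counted from an earlier start, chr16:20672633-20672718 (+): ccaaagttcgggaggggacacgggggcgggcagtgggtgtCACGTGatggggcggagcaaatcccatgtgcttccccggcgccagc. Eif5a has it 74 bases before a start inside the gene, chr11:69921415-69921500 (-): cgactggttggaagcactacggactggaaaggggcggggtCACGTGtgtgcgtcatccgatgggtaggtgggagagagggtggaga. As deposited none of these 5 genes passed limma between model and control livers. With median ratios Eif4g1 was lower, and at an equal total FPKM the other 4 were higher, as were 6132 of all 13158 genes.

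The CCAAT box, searched on both strands, was present in 13 of the 39 promoters (33.3%, beside 41.1% of all). Of the genes that rose it was in 2 of 14 (Eif2b2 and Eif2b4), and of the other tested genes in 10 of 22. The core of the response element bound by C/EBP and ATF proteins, TGATGCAA on either strand, was in none of the 39 and in 1.03% of all promoters. A start made of pyrimidines, as in mRNAs of ribosomal proteins, was found for Eif2s3x and Eif3f (5.13% beside 3.01% of all).

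eIF1 and eIF1A bind the 40S subunit and keep it open while it scans for the start codon. Of the 5 genes under these names, which include Eif1ad, 2 rose in the model as deposited (31.1% of all genes) and none with median ratios. The same 2 were lower with silibinin (11.4% of all genes) and phloridzin (10.4%). The median fold changes of the 5 were 0.59, -0.34 and -0.22 for model to control, silibinin to model and phloridzin to model, beside 0.34, -0.15 and -0.11 for all genes.

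Eif1 (chr11:100319885-100322096 +) guards start codon choice. It had 129, 158 and 127 FPKM in the control livers, 121, 136 and 166 in the model, 125, 149 and 171 in silibinin and 128, 159 and 142 in phloridzin livers. The 4 groups overlapped fully, and the fold change of model to control was 0.03 ± 0.17. With median ratios it was -0.42 ± 0.20 and did not pass (adjusted p 0.147). With Eif5a, Eif1 was the most abundant of the 50 genes.

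Eif1a (ENSMUSG00000057561) encodes eIF1A on an autosome. The 3 control livers held 31.4, 33.3 and 24.1 FPKM, the model livers 43.1, 49.0 and 48.9, the silibinin livers 28.3, 27.6 and 27.2 and the phloridzin livers 29.7, 27.4 and 24.2. Every model liver was above every other liver, and the compound groups lay within the control range. It rose in the model by 0.66 ± 0.14 (adjusted p 0.00468), a call lost with median ratios. It was lower with silibinin (-0.74 ± 0.14, adjusted p 0.00621) and with phloridzin (-0.77 ± 0.14, adjusted p 0.00532).

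Eif1ad (chr19:5366741-5371526 +), needed late in the making of the 40S subunit, gave 3.42, 3.79 and 3.91 FPKM in control and 6.38, 6.38 and 6.70 in model livers. In silibinin livers it gave 3.08, 3.15 and 2.99 and in phloridzin livers 4.34, 3.70 and 3.20. The 3 model values were nearly the same and none of the other 9 livers came near them. The fold changes were 0.67 ± 0.12 for model to control (adjusted p 0.00179, not passed with median ratios), -0.88 ± 0.12 for silibinin to model (adjusted p 0.000950) and -0.66 ± 0.12 for phloridzin to model (adjusted p 0.00490, not passed when only these 6 livers were fitted).

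Eif1ax, the copy of eIF1A on the X chromosome, had 4.81, 7.99 and 4.86 FPKM in control, 9.17, 9.29 and 8.89 in model, 5.29, 8.95 and 7.11 in silibinin and 10.5, 5.61 and 8.00 in phloridzin livers. The model livers lay above the controls but overlapped both compound groups, and the fold change of 0.59 ± 0.24 did not pass (adjusted p 0.0830). Eif1a and Eif1ax encode nearly the same protein, so how fragments were divided between them is uncertain.

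eIF2 is the complex that carries the initiator methionyl-tRNA. Its α subunit gene Eif2s1 (chr12:78861819-78887010 +) was barely measured, with 0.231, 0.586 and 1.23 FPKM in control, 1.18, 0.626 and 0.0769 in model, 0.0868, 0.530 and 0.106 in silibinin and 0.280, 0.00861 and 0.224 in phloridzin livers. Its mean of 0.431 was under the limit for testing, although it encodes the target of the eIF2α kinases.

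The β subunit gene Eif2s2 (chr2:154871410-154892935 -) was at 10.6, 11.7 and 11.2 FPKM in control and 16.1, 19.9 and 19.2 in model livers, at 10.5, 10.4 and 11 with silibinin and at 13.8, 11 and 9.54 with phloridzin. All model livers were above all others. It rose in the model (0.67 ± 0.14, adjusted p 0.00452, not passed with median ratios) and was lower with silibinin (-0.74 ± 0.14, adjusted p 0.00659) and phloridzin (-0.65 ± 0.14, adjusted p 0.0128, not passed without model liver 2).

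The γ subunit has copies on both sex chromosomes. The X copy, Eif2s3x, had means of 24.6 ± 2.05 in control and 32.4 ± 1.71 in model livers and rose by 0.38 ± 0.12 (adjusted p 0.0285), a call that ended without control liver 2 or 3 or model liver 2 or 3, and with median ratios the value was -0.05. The Y copy, Eif2s3y, ranged from 6.55 FPKM in control liver 3 to 33.3 in model liver 1 and did not pass. The 2 copies are close in sequence, and the division of fragments between them is uncertain.

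eIF2B reloads eIF2 with GTP and is the complex that phosphorylated eIF2α blocks. Of its 5 subunit genes 4 rose in the model, 3 were lower with silibinin and 2 with phloridzin, with median fold changes of 0.61, -0.74 and -0.42. Over all genes the shares were 31.1%, 11.4% and 10.4% and the medians 0.34, -0.15 and -0.11. With median ratios none of the 5 passed between model and control.

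Eif2b4 (δ subunit, chr5:31187558-31193430 -) showed 8.13, 11 and 6.53 FPKM in control, 13.6, 13.9 and 16.2 in model, 8.98, 7.04 and 5.53 in silibinin and 8.42, 7.70 and 8.38 in phloridzin livers. The model livers stood above all others, the nearest being control liver 2. It rose by 0.73 ± 0.19 (adjusted p 0.0148), and this did not pass without control liver 3 (0.57) or model liver 3 (0.65). Silibinin livers were lower, at -0.95 ± 0.19 (adjusted p 0.00929). Phloridzin livers were lower, at -0.76 ± 0.19 (adjusted p 0.0272), a call that ended without any of the model livers, without phloridzin liver 2 or 3, and with median ratios (-0.59, adjusted p 0.0523).

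Eif2b3 (γ subunit) was at 3.74, 4.68 and 2.81 FPKM in control, 5.50, 6.39 and 6.59 in model, 3.32, 2.90 and 3.69 in silibinin and 4.98, 4.17 and 3.61 in phloridzin livers. Again the model livers were above the rest, with phloridzin liver 1 the nearest. The fold change to control was 0.61 ± 0.17 (adjusted p 0.0172) and did not pass without control liver 3 or model liver 2 or 3. With silibinin it was -0.74 ± 0.17 (adjusted p 0.0151), not passed without model liver 2 or silibinin liver 2, and with phloridzin -0.45 ± 0.17 (adjusted p 0.105).

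Eif2b5, the catalytic ε subunit, varied most: 1.17, 12.5 and 9.77 FPKM in control, 16.1, 14.6 and 14.8 in model, 11, 4.92 and 10.7 in silibinin and 12.1, 11.7 and 10.6 in phloridzin livers. Control liver 1 and silibinin liver 2 were far below their groups. All model livers were the highest, but the fold change of 1.25 ± 0.56 did not pass (adjusted p 0.107). Eif2b1 (α subunit) rose from a mean of 8.75 ± 1.02 to 11.6 ± 0.435 (0.37 ± 0.11, adjusted p 0.0237) and was lower with silibinin (-0.39 ± 0.11) and phloridzin (-0.40 ± 0.11). The increase of Eif2b1 was lost without control liver 3 or model liver 2 or 3, and the decreases without any of the model livers. With median ratios the values of Eif2b1 were -0.03, -0.19 and -0.23, and none passed. Eif2b2 (β subunit) rose by 0.41 ± 0.14 (adjusted p 0.0449), which ended without any of the model livers or without control liver 2 or 3.

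Eif2a and Eif2d encode factors that can deliver a tRNA without eIF2. Neither passed in any comparison. Eif2a had 5.42, 1.78 and 11.7 FPKM in control, 3.60, 11.5 and 5.72 in model, 2.53, 1.19 and 1.83 in silibinin and 15.5, 1.77 and 2.93 in phloridzin livers. Its means of 6.31, 6.92, 1.85 and 6.72 in that order rest on single high livers, and the silibinin livers lay within the range of control and phloridzin livers or just under it.

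eIF3 is the largest of the complexes and holds the 40S subunit, eIF2 and eIF4G together. Of its 13 tested genes 5 rose in the model, 4 were lower with silibinin and the same 4 with phloridzin, with medians of 0.34, -0.46 and -0.17. All genes had medians of 0.34, -0.15 and -0.11, and 31.1% of them rose, 11.4% were lower with silibinin and 10.4% with phloridzin. With median ratios only Eif3b of the 5 rose. The 4 genes were Eif3b, Eif3c, Eif3d and Eif3g.

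Eif3b (chr5:140419328-140443360 +), part of the core and a contact of eIF3j, had 31.2, 31.2 and 28.2 FPKM in control and 50.8, 55.2 and 53.0 in model livers. It had 27, 27.7 and 27.7 in silibinin and 34.8, 27.4 and 27.2 in phloridzin livers. Model livers were far from all others, and silibinin livers were just under the lowest control. It rose by 0.79 ± 0.12 (adjusted p 0.000811), and also with median ratios (0.35). With silibinin it was lower, at -0.92 ± 0.12 (adjusted p 0.000758) and with phloridzin at -0.82 ± 0.12 (adjusted p 0.00165).

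Eif3c (chr7:126546455-126566411 -), the subunit next to eIF1, gave 40.1, 35.6 and 39.7 FPKM in control, 52.5, 65.2 and 65.0 in model, 36.0, 39.4 and 36.8 in silibinin and 43.0, 38.2 and 36.9 in phloridzin livers. Only the model livers passed 50 FPKM. Its fold changes were 0.64 ± 0.12 to control (adjusted p 0.00285, not passed with median ratios), -0.68 ± 0.12 with silibinin (adjusted p 0.00531) and -0.61 ± 0.12 with phloridzin (adjusted p 0.00929, not passed when only these 6 livers were fitted).

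Eif3d, which can bind the cap of some mRNAs, had means of 18.9 ± 2.05 in control, 29.3 ± 1.5 in model, 16.6 ± 1.57 in silibinin and 17.4 ± 2.30 in phloridzin livers. It rose by 0.61 ± 0.13 (not passed with median ratios) and was lower, at -0.79 ± 0.13 and -0.72 ± 0.13 with the compounds. Eif3g, an RNA-binding subunit, had means of 20.6 ± 0.661, 30 ± 1.53, 15.9 ± 1.91 and 17.8 ± 2.16 in the same order, with fold changes of 0.52 ± 0.12, -0.88 ± 0.12 and -0.73 ± 0.12, the increase again not passing with median ratios. Against control, Eif3g with silibinin was -0.36 (95% interval -0.63 to -0.09) (adjusted p 0.123).

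Eif3a, the largest eIF3 subunit, was low: 0.667, 0.625 and 0.818 FPKM in control, 3.06, 1.32 and 2.74 in model, 0.757, 1.34 and 2.97 in silibinin and 0.601, 1.45 and 1.20 in phloridzin livers. The model livers exceeded the controls, and silibinin livers spread over nearly the whole range. It rose by 0.95 ± 0.30 (adjusted p 0.0330), a call lost without any of the control livers, without model liver 1 or 3, and with median ratios. With transcripts of the NONCODE annotation inside the gene added to its sum, a choice made after the values were seen, Eif3a differed in all 3 comparisons (1.16, -0.69 and -0.87).

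Eif3j1 encodes eIF3j, a loosely bound subunit at the mRNA channel. It was near 0 in most livers, with 0.516, 0.00511 and 0.0219 FPKM in control, 0.858, 0.00728 and 0.388 in model, 0.00346, 0.0117 and 0.0117 in silibinin and 0.00723, 0.00882 and 0.00563 in phloridzin livers, and was not tested. Its near copy Eif3j2 had 2.50, 2.48 and 2.80 in control, 4.37, 4.0 and 4.08 in model, 2.40, 2.42 and 2.59 in silibinin and 0, 3.45 and 2.95 in phloridzin livers and did not pass. The division between the 2 copies is uncertain.

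Among the other eIF3 genes Eif3m, a subunit of the PCI and MPN module, showed jumps between single livers: 4.39, 5.55 and 34.0 FPKM in control, 5.09, 48.5 and 6.95 in model, 3.68, 4.53 and 4.73 in silibinin and 8.00, 46.6 and 5.31 in phloridzin livers. Its transcript ENSMUST00000028592 ran from 1.14 to 47.2 FPKM over the 12 livers and made those jumps. Eif3e was at 29.8 in control, 32.3 in model, 29.2 in silibinin and 41.3 ± 8.58 in phloridzin livers, and its most abundant transcript does not code for protein. Eif3h had a mean of 38.9 in control and 52.2 in phloridzin livers (log2 fold change 0.40 ± 0.14, adjusted p 0.108).

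eIF4F is the complex on the cap: eIF4E binds the cap, eIF4G is the scaffold and eIF4A unwinds the leader. None of the 3 eIF4A genes and neither helper of the helicase, Eif4b and Eif4h, passed in any of the 3 comparisons with the model. Of the 3 eIF4E genes 1 rose, and of the 3 eIF4G genes 2 rose in the model and 1 was lower with phloridzin. Over all genes 31.1% rose in the model and 10.4% were lower with phloridzin. With median ratios Eif4g2 was higher and Eif4g1 lower in the model, and no call of Eif4e2 or Eif4g3 was left.

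Eif4a1 had 11.8, 8.06 and 15.2 FPKM in control, 23.6, 17.4 and 30.9 in model, 14.9, 17.0 and 6.13 in silibinin and 33.6, 17.2 and 10.6 in phloridzin livers. Model livers were above controls, but phloridzin liver 1 was the highest of all. The fold change of 0.98 ± 0.44 did not pass (adjusted p 0.109). Its most abundant transcript, ENSMUST00000123995, does not code for protein and made up 47.5% of the sum, and the close copy Eif4a-ps4 makes its level uncertain. Eif4a2 (chr16:23107444-23114136 +), the second cytoplasmic helicase, had 31.6, 48.0 and 30.9 in control, 38.3, 41.2 and 37.6 in model, 31.7, 32.8 and 38.9 in silibinin and 32.9, 44.9 and 40.7 in phloridzin livers, with the groups overlapping (0.11 ± 0.18 for model to control).

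Eif4e (chr3:138526179-138559696 +) was at 15.4, 9.29 and 0.504 FPKM in control, 19.6, 13.3 and 6.29 in model, 6.10, 7.98 and 11.2 in silibinin and 11.7, 5.80 and 8.06 in phloridzin livers. Each group spread widely, control liver 3 was close to 0, and 5 different transcripts led the sum in different livers. The fold change of 1.03 ± 0.74 did not pass (adjusted p 0.304).

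Eif4e2 (chr1:87213914-87240488 +), which encodes the cap-binding repressor 4EHP, had 9.21, 9.59 and 9.26 FPKM in control, 31.8, 19.3 and 16.9 in model, 25.0, 11.9 and 22.6 in silibinin and 29.0, 23.4 and 9.28 in phloridzin livers. The controls were close together and below every model liver, and the compound groups spread from near the controls into the model range. It rose by 1.14 ± 0.40 (adjusted p 0.0460), a call lost without any of the 6 livers and with median ratios. Its transcript ENSMUST00000113231 ran from 3.18 to 23.8 FPKM. The other transcripts summed to 5.77 ± 0.265 in control, 11.5 ± 1.96 in model, 7.54 ± 0.750 in silibinin and 5.33 ± 0.112 in phloridzin livers.

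The 4E-BP proteins hold eIF4E away from eIF4G until mTORC1 phosphorylates them. Eif4ebp1 had 7.58, 6.29 and 9.58 FPKM in control, 9.53, 14.5 and 12.9 in model, 8.67, 8.13 and 6.54 in silibinin and 11.5, 6.41 and 9.06 in phloridzin livers (0.59 ± 0.22, adjusted p 0.0616). Its lowest model liver was just under the highest control, within the phloridzin range and above all silibinin livers. Eif4ebp2 had 3.58, 7.31 and 8.35 in control, 3.27, 6.77 and 3.14 in model, 4.81, 8.67 and 6.99 in silibinin and 5.93, 7.23 and 4.16 in phloridzin livers (-0.46 ± 0.33, adjusted p 0.310). Its lowest values were those of model livers 1 and 3, and control liver 1 was close to them. Eif4ebp3, with 0.0128, 0.0124 and 0.0123 in control, 0.0161, 0.782 and 1.54 in model, 0.0126, 0.0121 and 0.818 in silibinin and 0.0132, 0.0128 and 0.0546 in phloridzin livers, was not tested. It was above 0.5 FPKM only in model livers 2 and 3 and silibinin liver 3. The eIF4E transporter Eif4enif1 had a mean of 5.33 ± 1.85 in control and 9.35 ± 3.56 in model livers and did not pass (0.68 ± 0.28, adjusted p 0.0770).

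A transcript of the NONCODE annotation inside Eif4ebp2, NONMMUT005824.2 (chr10:61428875-61432943 -), was more abundant than the named transcript of that gene. It had 60.7, 58.2 and 53.2 FPKM in control and 49.5, 42.8 and 41.8 in model livers, and means of 56.6 ± 1.68 with silibinin and 50.2 ± 5.78 with phloridzin. All model livers were below all controls. With all 3 NONCODE transcripts inside the gene added to its sum, the fold change of Eif4ebp2 was -0.33 and passed.

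Eif4g2 (chr7:111067750-111083030 -), the eIF4G relative DAP5 that lacks the eIF4E site, had 45.7, 22.9 and 36.1 FPKM in control, 78.6, 67.1 and 70.8 in model, 47.1, 52.1 and 52.0 in silibinin and 52.8, 46.9 and 45.3 in phloridzin livers. Model livers were the highest, and both compound groups lay between them and the controls, with phloridzin liver 3 just under control liver 1. It rose by 1.08 ± 0.21 (adjusted p 0.00307) and by 0.64 with median ratios, but did not pass when only its most abundant transcript was taken. Neither silibinin (-0.51 ± 0.21, adjusted p 0.130) nor phloridzin (-0.57 ± 0.21, adjusted p 0.10) passed against the model as deposited. At an equal total FPKM the phloridzin value was -0.69 and passed (adjusted p 0.0499). Against control the values were 0.57 (95% interval 0.11 to 1.03) for silibinin and 0.51 (95% interval 0.05 to 0.97) for phloridzin, with adjusted p of 0.143 and 0.159. With median ratios these values were 0.34 and 0.25, and at an equal total FPKM the silibinin value was 0.76 and passed (adjusted p 0.0368).

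Eif4g3 (chr4:137993022-138208508 +), a less abundant eIF4G scaffold, was at 1.43, 1.1 and 7.48 FPKM in control, 7.42, 12.9 and 14.8 in model, 4.54, 3.17 and 1.73 in silibinin and 2.09, 2.94 and 3.72 in phloridzin livers. Control liver 3 was as high as model liver 1, and every compound liver was below the model. It rose by 1.81 ± 0.49 (adjusted p 0.0163), which did not pass without control liver 1 or 2, without model liver 2 or 3, or with median ratios. With phloridzin it was lower, at -1.67 ± 0.49 (adjusted p 0.0480), a call lost without any of the 6 livers and with median ratios. With silibinin the fold change was -1.62 ± 0.49 (adjusted p 0.0503). It passed at an equal total FPKM (-1.81, adjusted p 0.0461) and with NONCODE transcripts added (-1.60, adjusted p 0.0262), but not with median ratios (-1.43, adjusted p 0.103).

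The transcript ENSMUST00000203828 of Eif4g3 was 0 or close to 0 in 9 livers and reached 6.16 FPKM in control liver 3, 9.44 in model liver 2 and 9.57 in model liver 3. The other transcripts of the gene summed to 1.43, 1.1 and 1.32 in control and 7.42, 3.50 and 5.18 in model livers. They summed to 4.54, 3.17 and 1.73 in silibinin and 2.09, 2.94 and 3.72 in phloridzin livers. Without that transcript every control was below every other liver.

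**Figure D5:**
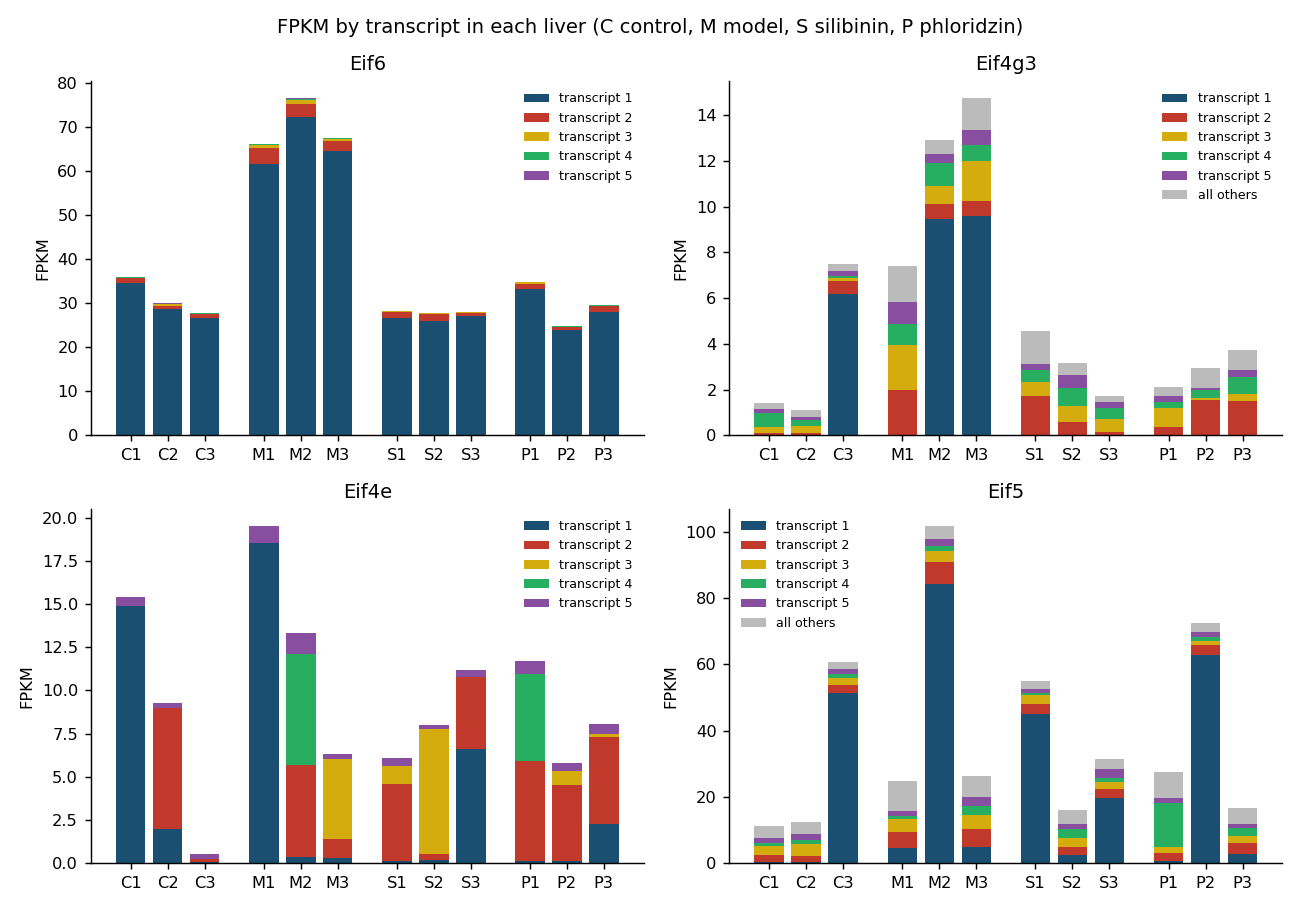
FPKM of the annotated transcripts of Eif6, Eif4g3, Eif4e and Eif5 in each liver, stacked to the gene sum (C control, M model, S silibinin, P phloridzin, 3 livers each).

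Eif4g1, the main scaffold, had 30, 36.6 and 30.7 FPKM in control, 29.0, 25.3 and 26.3 in model, 30, 34.5 and 22.1 in silibinin and 50, 26.8 and 22.9 in phloridzin livers. All model livers were below all controls, and phloridzin liver 1 was far above the other livers. The fold change was -0.26 ± 0.26 as deposited (adjusted p 0.462) and -0.69 with median ratios, where it passed. Eif4h, a helper of the helicase, had 55.0, 55.0 and 43.4 in control, 33.7, 34.1 and 63.8 in model, 49.6, 28.3 and 47.6 in silibinin and 58.6, 51.0 and 49.8 in phloridzin livers. Its transcript ENSMUST00000202622 ran from 0.759 to 32.5 FPKM over the livers. Eif4b had nearly the same mean in all groups, from 61.2 with silibinin to 64.3 with phloridzin.

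eIF5 makes eIF2 hydrolyse its GTP at the start codon, and eIF5B then joins the 60S subunit. Eif5 (chr12:111538016-111546752 +) was at 11.2, 12.3 and 60.7 FPKM in control, 24.6, 102 and 26.4 in model, 54.9, 15.9 and 31.3 in silibinin and 27.5, 72.5 and 16.5 in phloridzin livers. High livers were found in each group, and the fold change of 0.95 ± 0.79 did not pass (adjusted p 0.372). The transcript ENSMUST00000222375 ran from 0.22 to 84.4 FPKM and was highest in model liver 2 and phloridzin liver 2. The remaining transcripts of Eif5 summed to 10.8 ± 1.32 in control, 19.8 ± 2.06 in model, 11.7 ± 1.71 in silibinin and 16.8 ± 9.15 in phloridzin livers.

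Eif5b (chr1:37998010-38055579 +) had 2.11, 0.412 and 0.985 FPKM in control, 5.35, 2.93 and 6.25 in model, 1.34, 0.802 and 1.09 in silibinin and 3.45, 2.55 and 2.50 in phloridzin livers. Model livers were above control and silibinin livers. Phloridzin livers were above both of those groups and overlapped the lowest model liver. It rose by 1.46 ± 0.29 (adjusted p 0.00403), by 1.16 with median ratios, and was lower with silibinin, at -1.45 ± 0.29 (adjusted p 0.00920). With phloridzin the fold change was -0.57 ± 0.29 to model (adjusted p 0.239) and 0.89 (95% interval 0.24 to 1.54) to control (adjusted p 0.0911). Its most abundant transcript, ENSMUST00000192548, does not code for protein and made up 68.8% of the sum.

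eIF5A carries hypusine, an amino acid made from spermidine, and helps the ribosome through stalls. Eif5a had 116, 108 and 106 FPKM in control, 159, 132 and 172 in model, 91.6, 125 and 97.6 in silibinin and 154, 97.6 and 127 in phloridzin livers. Model livers were above control and silibinin livers, while phloridzin liver 1 was within the model range. The fold change of 0.48 ± 0.19 did not pass (adjusted p 0.0721), nor did -0.56 ± 0.19 with silibinin (adjusted p 0.0747). Processed copies of Eif5a could take up some of its fragments, which was not tested. The pseudogene Eif5al3-ps, left out by its symbol, reached at most 0.16 FPKM in a liver. Eif5a2 stayed under 0.5 FPKM on average in every group.

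Eif6 (ENSMUSG00000027613, chr2:155819832-155826925 -) had the smallest adjusted p of the 46 genes in all 3 comparisons with the model. It had 35.9, 29.9 and 27.7 FPKM in the control livers and 66.2, 76.6 and 67.4 in the model livers. In silibinin livers it had 28.2, 27.8 and 27.9, and in phloridzin livers 34.7, 24.8 and 29.4. The model livers stood far above the other 9, and the 3 silibinin livers were nearly equal. Eif6 rose by 1.15 ± 0.14 (adjusted p 0.000347), and by 0.71 with median ratios. It was lower, at -1.29 ± 0.14 with silibinin (adjusted p 0.000332) and at -1.22 ± 0.14 with phloridzin (adjusted p 0.000492), and these calls held under every alternative. Against control it was -0.14 (95% interval -0.46 to 0.17) with silibinin and -0.07 (95% interval -0.39 to 0.24) with phloridzin. With median ratios these values were -0.37 ± 0.13 (adjusted p 0.136) and -0.33 ± 0.13 (adjusted p 0.155). A single transcript, ENSMUST00000029142, made up 95.0% of its level.

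The next genes act around initiation and were listed by name, and counts are for model to control, silibinin to model and phloridzin to model. Their medians stand beside 0.34, -0.15 and -0.11 for all genes. Their counts stand beside 31.1% of all genes higher, 11.4% lower and 10.4% lower, which with median ratios were 1727, 850 and 823 of 13086 genes.

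Of the 4 eIF2α kinases 1 rose in the model and was lower with both compounds, Eif2ak3, which encodes the endoplasmic reticulum kinase PERK. It had 4.04, 6.59 and 4.49 FPKM in control, 13.7, 16.1 and 16.0 in model, 5.01, 4.90 and 4.76 in silibinin and 5.89, 5.38 and 5.98 in phloridzin livers. Model livers were more than 2 times as high as any other. The fold changes were 1.45 ± 0.15, -1.46 ± 0.15 and -1.27 ± 0.15. Of the 5 phosphatase genes 1 did the same, Ppp1r15a, which encodes GADD34, the regulatory subunit that directs the phosphatase to eIF2α. It had 1.1, 0.999 and 1.37 in control, 5.97, 8.82 and 4.83 in model, 1.21, 1.71 and 2.05 in silibinin and 1.24, 1.69 and 1.43 in phloridzin livers (1.78 ± 0.20, -1.49 ± 0.20 and -1.59 ± 0.20). With median ratios Eif2ak3 and Ppp1r15a passed in the same directions, but the phosphatase subunits Ppp1ca (-0.55) and Ppp1cc (-0.79) were lower in the model. Ppp1cc was then higher with phloridzin (0.78), and the kinase Eif2ak1 was higher with silibinin (0.81).

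Among 10 known readouts of the integrated stress response 8 rose in the model, 7 were lower with silibinin and 6 with phloridzin, with medians of 1.35, -1.16 and -1.22 (4 higher, 5 lower and 6 lower with median ratios). Ddit3, which encodes CHOP, had 0.702, 0.991 and 1.27 FPKM in control, 4.58, 31.1 and 42.0 in model, 0.754, 1.57 and 1.17 in silibinin and 1.24, 1.84 and 1.07 in phloridzin livers. Its fold changes were 3.32 ± 0.59, -3.21 ± 0.59 and -3.06 ± 0.59, and model liver 1 was well below the other 2. Trib3, a pseudokinase downstream of CHOP, had 5.41, 6.31 and 4.09 in control, 64.4, 42.1 and 74.5 in model, 5.00, 4.25 and 3.43 in silibinin and 4.70, 4.89 and 5.36 in phloridzin livers (3.27 ± 0.21, -3.53 ± 0.21 and -3.32 ± 0.21). Nupr1, a stress-induced chromatin protein, had fold changes of 2.46, -2.21 and -1.92. Its mean was 6.05 FPKM in model livers, beside 0.191 in control, 0.417 in silibinin and 0.740 in phloridzin livers. Nupr1 thus reached the limit for testing only through the model livers, so its place in these counts is not independent of that limit. Atf4 itself had 1.33, -0.99 and -1.63, and with median ratios only its decrease with phloridzin passed.

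Of 14 regulators of mTORC1, 4E-BP or eIF4E 3 rose, 2 were lower with silibinin and 1 with phloridzin (medians 0.50, -0.13 and -0.11). With median ratios 2 rose and 1 fell in the model, 1 was higher and 2 lower with silibinin, and 1 was lower with phloridzin. Mknk1, a kinase of eIF4E, had 1.39 ± 0.15, -1.22 ± 0.15 and -0.92 ± 0.15. Rheb, the GTPase that activates mTORC1, had 0.78 ± 0.16 in the model and -0.70 ± 0.16 with silibinin, the increase not passing with median ratios (0.35, adjusted p 0.0680). In phloridzin livers it had 23.9, 17.7 and 16.0 FPKM, beside 24.2, 26.7 and 29.8 in model livers. That difference did not pass with median ratios (-0.30, adjusted p 0.155). Pdcd4, an inhibitor of eIF4A, did not pass as deposited but with median ratios was lower in the model (-0.85) and higher with silibinin (0.79). Mlst8, a subunit of mTORC1, was close to 0 in the control livers and rose by 1.45 ± 0.29.

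Of 9 cap and poly(A) binding genes 6 rose, 3 were lower with silibinin and 3 with phloridzin (medians 0.61, -0.50 and -0.47, and 2, 3 and 3 with median ratios). Pabpc4, a poly(A)-binding protein, had 1.03 ± 0.15, -1.0 ± 0.15 and -0.91 ± 0.15. Gigyf2, the partner of 4EHP, had 0.93 ± 0.13, -0.66 ± 0.13 and -0.72 ± 0.13. Of 9 other initiation and recycling genes 4 rose and 4 were lower with each compound (medians 0.41, -0.53 and -0.43, and 3, 3 and 3 with median ratios). Abce1, which splits ribosomes after termination, had 1.22 ± 0.27, -1.36 ± 0.27 and -0.98 ± 0.27, the last not passing with median ratios. Ddx3x, a helicase for structured leaders, had 0.88 ± 0.13, -0.67 ± 0.13 and -0.77 ± 0.13, where the silibinin value did not pass with median ratios.

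Of 11 tested elongation and termination genes 5 rose, 4 were lower with silibinin and 1 with phloridzin (medians 0.49, -0.55 and -0.38, and counts of 2, 2 and 1 with median ratios). Eef1b2, an exchange factor of eEF1A, had 1.42 ± 0.21, -1.19 ± 0.21 and -1.07 ± 0.21. Among 5 tested genes of polyamine synthesis and of hypusine on eIF5A, 2 rose and 3 were lower with each compound (medians 0.57, -0.79 and -0.81, and counts of 2, 2 and 2 with median ratios). Srm, spermidine synthase, had 9.79, 9.78 and 8.52 FPKM in control, 41.7, 44.4 and 47.6 in model, 6.62, 6.33 and 6.87 in silibinin and 7.75, 7.26 and 8.09 in phloridzin livers. The model livers were over 4 times any other liver, with fold changes of 2.14 ± 0.10, -2.58 ± 0.10 and -2.39 ± 0.10. Srm was also lower with silibinin than in control (-0.44 ± 0.10, adjusted p 0.0385), a call lost at an equal total FPKM (-0.30, adjusted p 0.114). Dhps, which starts hypusine synthesis, was lower with silibinin (-0.79 ± 0.21) and phloridzin (-0.81 ± 0.21), and its model to control value was 0.57 ± 0.21 (adjusted p 0.0549). With median ratios neither decrease of Dhps passed (-0.59, adjusted p 0.0836, and -0.65, adjusted p 0.0668).

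Of 20 aminoacyl-tRNA synthetases 13 rose, 9 were lower with silibinin and 9 with phloridzin (medians 0.69, -0.77 and -0.66), and with median ratios 7 rose and 1 fell, then 7 and 8 were lower. Wars had 1.59 ± 0.35, -1.22 ± 0.35 and -1.52 ± 0.35, and Eprs had 1.32 ± 0.40, -1.55 ± 0.40 and -1.60 ± 0.40. With median ratios the increase of Eprs (0.90, adjusted p 0.108) and the decrease of Wars with silibinin (-1.03, adjusted p 0.0618) did not pass. Of 80 tested ribosomal protein genes 20 rose, 2 were lower with silibinin and none with phloridzin (medians 0.44, -0.29 and 0.03). With median ratios 2 rose, 1 was lower with silibinin, and 3 were higher with phloridzin. Against control, 8 ribosomal protein genes were higher with phloridzin, where 7.51% of all genes were, at a median of 0.46 beside 0.18 for all genes, and none with silibinin. Those counts were 2 and 0 with median ratios, and 30 and 8 at an equal total FPKM.

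Markers of liver cells were read beside these results. Their counts are as deposited and stand beside 31.1% of all genes higher in the model. The 6 hepatocyte markers summed to 17110 ± 4241 FPKM in control, 22222 ± 6089 in model, 26087 ± 7847 in silibinin and 24499 ± 4212 in phloridzin livers, led by Alb, and none of the 6 passed between model and control. The higher sum in the model came from Alb, with means of 12700 in control and 19098 in model livers. The means of Ttr, Apoa1, Cps1 and Serpina1a were lower in the model (1067 and 393 for Serpina1a), and that of Hnf4a was nearly the same. The 6 stellate cell and myofibroblast markers, led by Col3a1, summed to 15.7, 11.1 and 12.2 in control and 137, 111 and 145 in model livers, and 4 of the 6 rose. They summed to 141, 132 and 55.2 in silibinin and 199, 68.7 and 53.8 in phloridzin livers. The 6 macrophage markers, led by Lyz2, summed to 158 ± 48.1 in control, 424 ± 86.6 in model, 417 ± 76.2 in silibinin and 497 ± 166 in phloridzin livers, with 3 of 6 higher in the model.

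Cholangiocyte markers, led by Spp1, summed to 13.7 ± 2.80 in control, 50.7 ± 4.71 in model, 40.2 ± 14.0 in silibinin and 35.0 ± 15.3 in phloridzin livers, and 2 of 3 tested rose (31.1% of all genes). Of 5 tested leukocyte markers 1 rose, again beside 31.1% of all genes, and their sums, led by S100a8, were 20.6 ± 6.34, 60.2 ± 22.4, 30.3 ± 7.81 and 61.4 ± 27.7 in the same order. None of 5 endothelial markers (56.8, 63.7, 47.1 and 69.0, led by Clec4g) and none of 3 erythroid markers (844, 518, 326 and 494, led by Hbb-bs) passed. S100a9 was 0 in 7 livers and Gpnmb in 1. Their part in the result was not tested. In bulk tissue fewer cells of a type and less RNA per cell cannot be told apart.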

How the data were processed

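The deposited table holds FPKM by transcript from the authors, who worked with HISAT2 2.1.0, StringTie 1.3.3b and DESeq 1.28.0 on mm10. That the unit is FPKM was read from the values, so the test used log2(FPKM + 1) with limma instead of a count model. Of 169430 transcripts, 82136 carry Ensembl names, 68303 NONCODE names and 18991 are assembled. Ensembl transcripts were summed by symbol (24296 symbols). Estimated depth was 83.7 to 111 M fragments, lowest in model liver 1. limma-trend (limma 3.58.1 in R 4.3.3, with the package data.table, version 1.17.8) fitted the 12 livers at once, without covariates, with a pseudocount of 1, a mean of at least 0.5 FPKM, two-sided p-values and Benjamini-Hochberg adjustment over 13158 genes. Adjusted p under 0.05 was the threshold. Silibinin was given at 27.3 mg/kg according to the methods of the study.

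Figures came from matplotlib 3.10.9, and sums and counts from pandas 2.3.3, scipy 1.17.1 and numpy 2.4.6 under Python 3.11.15. The script was tested on simulated data. Alternatives were median-ratio scaling, an equal total FPKM, pseudocount 0.1, no filter, the highest transcript, a replicate block, only the compared groups, each liver left out, and NONCODE transcripts added, which was chosen after the values were seen. A setting with Ensembl transcripts only, as in the main sums, was counted with them. Per-liver values are given for a panel of 20 genes fixed beforehand and for the 5 largest called fold changes of each comparison with the model, and genes added for other reasons were chosen after the values were seen. Other called members have fold changes. Members and lists were chosen with earlier results of these data known. Promoters span 250 bases before to 50 after the start (RefSeq, GRCm38.p6).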

Additional observations from a re-analysis of the deposited data

Results flagged for a closer look

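A NONCODE transcript that carries no gene symbol, and so was left out of the sums, lies inside Eif3j1 (NONMMUT039532.2, chr2:122052464-122053022 +). Its mean in the model livers was 52.8 FPKM, while Eif3j1 itself was near 0. It had 34.3, 33.4 and 0.637 FPKM in control, 51.3, 52.2 and 55.0 in model, 25.6, 25.0 and 29.6 in silibinin and 29.5, 27.9 and 31.1 in phloridzin livers. It stood out because it held far more signal than the gene it lies in. The cause was not tested.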

How the results depend on the processing

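Of 615 values from 41 calls, 511 stayed the same, 102 became weaker and 2 reversed. Of the 511, 41 came from a setting with Ensembl transcripts only, which repeats the main sums and so could not differ. Between model and control the count of 18 was 5 with a log2 fold change past 1, 5 with median ratios, 28 at an equal total FPKM, 10 with the highest transcript and 11 to 18 over left-out livers (11 without model liver 3). Over all genes 34.9% differed as deposited, 25.0% with median ratios and 48.7% at an equal total FPKM. With median ratios Eif2b1 (-0.0345) and Eif2s3x (-0.0493) reversed, and so did the ratios of eIF1 (0.844) and eIF4 (0.931). Eif3b, Eif5b and Eif6 were called under every alternative.

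With median ratios the ratios of eIF2, eIF3, eIF5 and eIF6 were 1.09, 1.00, 1.1 and 1.65. At an equal total FPKM those of eIF1 to eIF6 were 1.33, 1.72, 1.59, 1.48, 1.77 and 2.60. Over left-out livers they ran from 1.07 to 1.24 for eIF1, 1.41 to 1.56 for eIF2, 1.28 to 1.48 for eIF3, 1.23 to 1.3 for eIF4, 1.41 to 1.68 for eIF5 and 2.13 to 2.43 for eIF6.

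Between silibinin and model the count of 12 was 2 past a log2 fold change of 1 and 10 to 12 over left-out livers, and 10 genes were called under every alternative. Between phloridzin and model the count of 11 was 2 past 1, 7 with only the compared groups and 7 to 11 over left-out livers (7 without model liver 2), and 5 genes were always called: Eif1a, Eif3b, Eif3d, Eif3g and Eif6. Between silibinin and control the count of 0 was 1 with median ratios, 2 at an equal total FPKM and 0 to 0 over left-out livers. Over all genes 4.35% differed with median ratios and 15.9% at an equal total FPKM. Between phloridzin and control the count was 1 with median ratios, 1 at an equal total FPKM and 0 to 1 over left-out livers (1 without phloridzin liver 3). For this comparison 5.94% of all genes differed with median ratios and 14.4% at an equal total FPKM.

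With the replicate block the counts were 17 for model to control, 11 for silibinin to model and 9 for phloridzin to model. The replicate block gave 1 call between phloridzin and control (Eif5b, 0.89). Over 18 pairs of livers with the same number the correlation ran from -0.0909 to 0.101, with a median of 0.0039. The cause was not tested.

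With NONCODE transcripts inside the genes added, the counts were 20 (19 higher and Eif4ebp2 lower), 15 and 12. The share of all genes is not given for added NONCODE transcripts, the replicate block, the highest transcript, only the compared groups or left-out livers. Changes of the member count under those settings are therefore not read as particular to the members. With 3 livers per group and bulk RNA, small differences can be missed, protein levels and phosphorylation were not measured, and the scaling of the deposited values sets the direction of many small differences.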

Other observations

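In the table, 35 NONCODE transcripts lie inside 19 of the 50 genes, and 22 of them had a mean of at least 0.5 FPKM. As deposited, 14 of these 22 had all model livers above all controls (63.6%, beside 43.1% of the 8508 NONCODE transcripts with that mean), and 9 had them above the other 9 livers (40.9% beside 16.6%). Several of these share a gene: NONMMUT045492.2, NONMMUT045495.2, NONMMUT045496.2 and NONMMUT045497.2, all above the other livers, lie inside Eif4e. With median ratios the counts were 9 (40.9% beside 22.2%) and 8 (36.4% beside 8.56%). The limit of 0.5 FPKM includes the model livers, so a transcript that is high there can pass through them alone. Among the 14 this held for NONMMUT040642.2, NONMMUT045496.2, NONMMUT038938.2 and NONMMUT008248.2, and the first and second of these are also among the 9. These shares therefore describe the transcripts kept and are no test. None of them enters the gene sums, so the levels of those 19 genes leave out signal that the table holds at the same place.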
